A study of Mus musculus with 32 samples.

Results

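The 10 genes described here were measured in RNA sequencing libraries of neoplastic cells sorted from mouse lung tumors, namely the Trim cluster genes Trim12a, Trim34a, Trim12c and Trim30a on chromosome 7, the cytidine deaminase gene Apobec3 on chromosome 15, and Gm3608, AI506816, Xylt1, Capza1 and Cttnbp2nl. These 10 of the 53558 genes in the count files were picked by name, because earlier results of the same libraries had marked them as different between KT tumors and both groups of Lkb1XTR tumors. The difference from KT tumors is therefore given below as a description, without a test, and tests are kept for comparisons that the choice did not use. Apart from that within the Trp53-deficient groups, these comparisons share non-restored or restored libraries with the choice, so they are not independent of it. All animals carried a Rosa26 LSL-tdTomato reporter, and tumors were started with Lenti-Cre. KT mice had no Lkb1XTR allele, received no tamoxifen or vehicle, and gave 4 libraries, 2 of them from males. The paper gives them a lower Lenti-Cre dose than the Trp53 wild-type Lkb1XTR mice, so the dose also differs in the comparison with KT mice. Non-restored tumors (10 libraries, 3 from males) came from Lkb1XTR/XTR mice, in which Cre switches off Lkb1 (gene symbol Stk11). Of these, 6 libraries came from mice with FLPo-ERT2 given vehicle and 4 from mice without FLPo-ERT2 given tamoxifen. Restored tumors (7 libraries, all female) came from Lkb1XTR/XTR mice with FLPo-ERT2 given 4 mg doses of tamoxifen and studied after 2 weeks, which returns the Lkb1 allele. The last groups were also Trp53 flox/flox and were collected 16 to 19 weeks after tumor initiation rather than 24 to 27 weeks. They comprised 7 Trp53-deficient non-restored libraries from 4 animals (3 libraries from males), of which replicates 1 to 5 had FLPo-ERT2 and vehicle and replicates 6 and 7 had tamoxifen without FLPo-ERT2. The 4 Trp53-deficient restored libraries came from females with FLPo-ERT2 given 4 mg doses of tamoxifen. The mice were of a mixed C57BL/6J and 129 background and the Lkb1XTR allele came from a single embryonic stem cell clone of 129 origin, so the allele, the mouse line and the DNA linked to the allele cannot be told apart in the comparison with KT mice. The Trp53 wild-type non-restored and restored groups also held fewer mice than libraries, and their libraries could not be tied to mice. The p-values measure only the spread between these samples.

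TRIM proteins such as TRIM5, TRIM12 and TRIM30 are ubiquitin ligase family members, several of which act as restriction factors, proteins that block retroviruses inside the cell, and many are switched on by interferon. The mouse genes of this group lie side by side on chromosome 7 as a set of recent duplicates whose copy number and sequence vary between inbred strains. APOBEC3 enzymes deaminate cytidines in retroviral DNA, and mouse Apobec3 is a known strain-variable factor against Friend virus. Capza1 encodes the alpha subunit of the actin capping protein, Cttnbp2nl encodes a cortactin-binding partner of the striatin complexes, and Xylt1 encodes the xylosyltransferase that starts the sugar chains of proteoglycans. Gm3608 is an annotated pseudogene and AI506816 a processed transcript without a known protein product.

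The sequences that separate these genes are shown first, because several of the genes have near-identical copies and short reads must be divided between them. In the mm10 annotation (GENCODE M21), Trim34a (chr7:104244457-104262234, plus strand), Trim12a (chr7:104299894-104315466, minus strand), Trim12c (chr7:104338754-104353362, minus strand) and Trim30a (chr7:104409025-104465193, minus strand) follow each other. Apobec3 lies at chr15:79891659-79915906 on the plus strand. The promoters of these 5 genes are printed from 250 bases before to 30 bases after the RefSeq start site (RefSeq, GRCm38.p6, 5′ to 3′ on the gene's strand), with capitals at each match to GAAA, any 2 bases and GAAA, or on the other strand TTTC, any 2 bases and TTTC, a core of the interferon-stimulated response element. They are Trim12a at chr7:104315466-104315745, Trim12c at chr7:104353320-104353599, Trim34a at chr7:104244207-104244486, Trim30a at chr7:104465164-104465443 and Apobec3 at chr15:79892158-79892437.
Trim12a promoter: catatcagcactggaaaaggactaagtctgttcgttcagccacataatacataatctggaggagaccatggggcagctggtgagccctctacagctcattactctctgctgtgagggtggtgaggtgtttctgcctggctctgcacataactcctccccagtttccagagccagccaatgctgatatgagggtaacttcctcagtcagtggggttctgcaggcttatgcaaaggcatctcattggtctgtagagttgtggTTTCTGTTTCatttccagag
Trim12c promoter: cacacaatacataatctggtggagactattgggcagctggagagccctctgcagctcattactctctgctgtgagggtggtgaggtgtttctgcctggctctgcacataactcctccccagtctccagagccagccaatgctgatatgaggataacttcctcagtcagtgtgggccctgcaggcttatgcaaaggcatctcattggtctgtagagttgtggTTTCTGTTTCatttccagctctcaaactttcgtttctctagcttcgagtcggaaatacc
Trim34a promoter: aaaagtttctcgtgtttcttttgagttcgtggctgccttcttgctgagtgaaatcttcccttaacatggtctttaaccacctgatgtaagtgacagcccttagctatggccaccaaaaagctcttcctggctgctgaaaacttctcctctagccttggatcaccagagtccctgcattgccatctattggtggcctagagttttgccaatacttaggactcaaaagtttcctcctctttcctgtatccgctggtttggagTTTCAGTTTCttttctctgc
Trim30a promoter: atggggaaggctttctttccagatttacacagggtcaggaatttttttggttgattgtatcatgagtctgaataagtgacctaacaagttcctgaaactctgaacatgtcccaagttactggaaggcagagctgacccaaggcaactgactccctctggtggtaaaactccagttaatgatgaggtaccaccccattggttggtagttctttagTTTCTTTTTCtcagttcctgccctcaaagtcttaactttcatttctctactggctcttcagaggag
Apobec3 promoter: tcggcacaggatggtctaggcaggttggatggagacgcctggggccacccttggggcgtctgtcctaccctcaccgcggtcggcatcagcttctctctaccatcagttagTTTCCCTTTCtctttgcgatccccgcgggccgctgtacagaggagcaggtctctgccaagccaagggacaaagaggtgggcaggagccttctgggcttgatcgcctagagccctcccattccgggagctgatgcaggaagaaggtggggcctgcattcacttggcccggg
All 5 held the match, against 3.44% of 32851 promoters of 300 bases (1131 promoters). The match began at base +11 in Trim12a and Trim34a, at base -29 in Trim12c, at base -36 in Trim30a and at base -140 in Apobec3, counted from the start site. The second Apobec3 promoter and the promoters of AI506816, Capza1 and Cttnbp2nl did not hold these letters. The Trim12a and Trim12c promoters were 71.9% identical over their alignment, gaps included, with 230 identical, 10 mismatched and 80 gap bases. The stretch that both share, with the match in it, lies at different distances from their annotated start sites.

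Capza1 (chr3:104822779-104864505, minus strand) and the Gm3608 pseudogene (chr1:105455971-105458829, plus strand) differed at 8 of 2854 aligned bases (99.72% identical), of which 3 lay in the coding part of Capza1. The substitutions T670C, A791G and A887G give the Capza1 base, its position from the 5′ end of the Capza1 transcript and the Gm3608 base. The first and the last of these are shown with the differing base in capitals, since reads over such bases are what tells the transcripts apart. The windows lie at chr3:104834126-104834154 and chr3:104825071-104825099 for Capza1 and at chr1:105456511-105456539 and chr1:105456728-105456756 for Gm3608 (mm10, on each gene's strand).
Capza1 at T670C: tggaagttcaccatTacaccaccttcagc
Gm3608 at T670C: tggaagttcaccatCacaccaccttcagc
Capza1 at A887G: ctatgtcagacaccAcgttcaaggccttg
Gm3608 at A887G: ctatgtcagacaccGcgttcaaggccttg
The transcripts of Trim12a and Trim12c were also close, with 96.53% identity over 981 aligned bases, and Trim12a and Trim5 matched at 96.96% over 953 bases.

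Library totals ran from 1302482 to 5943951 expected counts, the read numbers that RSEM divides among genes. Levels are given as CPM, counts scaled to a common library size after TMM normalization. Stk11 stood at 16.2 to 27.2 CPM in KT libraries, 0 to 1.31 in non-restored, 11.7 to 22.2 in restored, 0 to 0.769 in Trp53-deficient non-restored and 8.44 to 14.8 in Trp53-deficient restored libraries, as the labels require. Trp53 fell by 3.28 on the log2 scale in Trp53-deficient against Trp53 wild-type non-restored tumors (SE 0.35, adjusted p = 8.91e-07, edgeR quasi-likelihood test). Summed markers of lung epithelium reached 8650 to 58300 CPM, and immune markers 2.73 to 295 CPM, the highest in a restored library. Of the 10 immune markers, 1 to 3 were at 0 in every library of a group. Endothelial markers summed to 1.11 to 92.8 CPM. Fibroblast markers summed to 11.7 to 61.6 CPM in KT libraries and up to 1010 CPM elsewhere, and their part in the results below was not tested. In such sorted bulk samples, a lower level in each cell cannot be told apart from fewer cells that express the gene.

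In KT tumors Trim12a, AI506816, Capza1 and Cttnbp2nl stood higher than in any of the 17 Trp53 wild-type Lkb1XTR libraries, and Gm3608 and Xylt1 stood lower. These 6 of the 10 genes had KT and Lkb1XTR ranges that did not overlap, whereas 1.04% of the 12636 genes tested did so (0.633% with KT higher and 0.404% with KT lower). In the fit across all genes (threshold, adjusted p under 0.05, edgeR), 7 of the 10 were on the list of genes past the threshold against both Lkb1XTR groups in the same direction, which held 0.38% of all genes. By group, 7 were on that list for non-restored tumors (background 5.88%, of which 2.39% higher and 3.49% lower than KT, with 20.8% under an unadjusted p of 0.05). For restored tumors 8 were on it (background 0.459%, of which 0.127% higher and 0.332% lower). All these counts restate the choice of the genes and test nothing about them. With near-identical copies summed, 3 of the 10 still had ranges that did not overlap, namely AI506816, Cttnbp2nl and Xylt1. At the edge of the choice, Apobec3, Trim34a, Trim12c and Trim30a had ranges that overlapped with KT. Apobec3, Trim12c and Trim30a did not pass the threshold against both Lkb1XTR groups and so did not follow the description under which they were grouped. The ranges of Trim30a overlapped along almost their whole length. For Apobec3 the log2 difference from KT was -0.71 (SE 0.28) in non-restored and -2.11 (SE 0.30) in restored tumors.

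**Figure D1:**
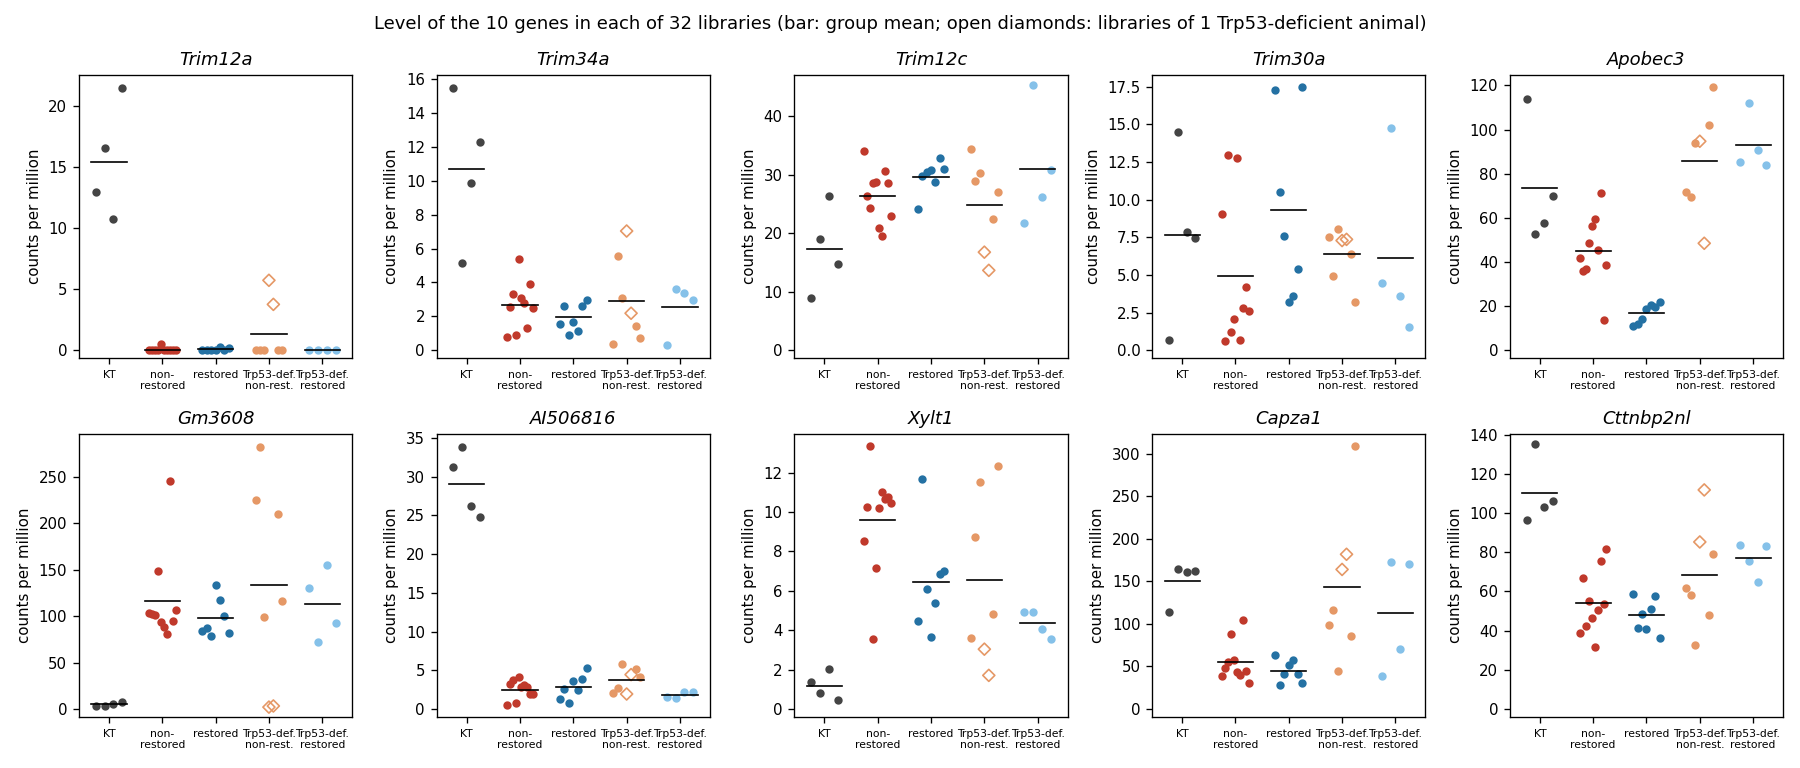
Level of each of the 10 genes in every library (vertical axis, CPM), by group along the horizontal axis. Each point is a library, each bar a group mean, and open diamonds are the Trp53-deficient animal of replicates 4 and 5. The 4 KT libraries of Trim12a sit at 10.8 to 21.5 CPM, above the 17 Trp53 wild-type Lkb1XTR libraries at up to 0.512 CPM, whereas those of Trim30a spread across the same range as the rest.

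Trim12a was close to an on-off gene. The 4 KT libraries, here and below in the order of replicates 1 to 4, held 12.9, 16.5, 10.8 and 21.5 CPM. The non-restored libraries had a lowest value of 0, a median of 0 and a highest of 0.512 CPM, and the restored libraries 0, 0 and 0.225 CPM. The KT libraries thus held 111 counts of Trim12a, and the 17 Lkb1XTR libraries held 3 in all, with 13 of them at 0. The ratio of levels was 283 with a 95% interval of 94.3 to 1390 that covers counting error only. RSEM divides reads among near-identical transcripts, so the sum of Trim12a and Trim12c was compared as well. It was 21.8 to 37.1 CPM in KT and 19.6 to 34.1 CPM in Lkb1XTR libraries, which overlap, whereas the share of that sum given to Trim12a was 29 to 59.4% in KT and 0 to 1.75% in Lkb1XTR libraries. Trim5, the other close copy and the mouse relative of the human antiretroviral factor TRIM5, went the same way as Trim12a with 2.54 to 9.21 CPM in KT and 0 to 0.819 CPM in Lkb1XTR libraries. With Trim5 and the further copy Gm4992 added to the sum, the family level was 29.3 to 45.4 CPM in KT and 19.6 to 34.1 CPM in Lkb1XTR libraries, again with overlap.

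Trim12c, which encodes a close paralog of Trim12a, was found in every library. KT libraries held 8.86, 19.0, 26.4 and 14.7 CPM. Non-restored libraries held 19.6, 27.4 and 34.1 CPM (lowest, median, highest) and restored libraries 24.1, 30.5 and 32.8 CPM. Of the 4 KT libraries, only replicate 3 reached the Lkb1XTR range. The log2 difference was 0.60 (SE 0.20) for non-restored and 0.77 (SE 0.21) for restored against KT tumors.

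Trim34a, another gene of the antiretroviral TRIM group, was lower in Lkb1XTR tumors. KT libraries held 15.5, 5.12, 9.84 and 12.3 CPM, non-restored libraries 0.762, 2.68 and 5.38 CPM (lowest, median, highest) and restored libraries 0.918, 1.69 and 2.97 CPM. KT replicate 2 fell just inside the non-restored range, so the groups overlapped by that library. The log2 difference from KT was -2.01 (SE 0.42) for non-restored and -2.47 (SE 0.46) for restored tumors. Its duplicate Trim34b ran the other way in share: Trim34a took 75.8 to 100% of their summed CPM in KT and 15.9 to 63.6% in Lkb1XTR libraries, while Trim34b itself overlapped at 0 to 3.14 and 0.986 to 5.61 CPM.

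Trim30a, an interferon-induced inhibitor of inflammatory signalling, varied from library to library in every group. KT libraries held 0.681, 14.5, 7.88 and 7.48 CPM, non-restored libraries 0.642, 2.70 and 13 CPM (lowest, median, highest) and restored libraries 3.18, 7.59 and 17.5 CPM. The groups did not stand apart, and the log2 differences from KT were -0.60 (SE 0.71) and 0.26 (SE 0.76), each under its error. Its neighbour Trim30d, by contrast, held 0, 12.7, 7.07 and 8.26 CPM in KT replicates 1 to 4 and 0 to 0.408 CPM in the Lkb1XTR libraries. KT replicate 1, which had the lowest Trim30a of the group, was thus at 0 for Trim30d. Of 13 genes of the Trim cluster 9 had enough counts for the fit, and none of those outside the 10 genes passed the threshold against KT. Trim5 and Trim30d had too few counts to be tested. The other tested genes of the cluster, outside the copies above, included Trim3, Trim6, Trim21 and Trim68, whose KT and Lkb1XTR ranges overlapped.

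Capza1 and its pseudogene Gm3608 moved in opposite directions between the lines. Capza1 held 114, 164, 161 and 162 CPM in KT libraries, and 31.0, 46.3 and 104 CPM (lowest, median, highest) in non-restored and 27.6, 41.4 and 63.3 CPM in restored libraries. Gm3608 held 3.62, 3.49, 5.27 and 7.00 CPM in KT libraries, 81.1, 102 and 245 CPM in non-restored and 78.6, 87.5 and 133 CPM in restored libraries. Neither gene's KT range met its Lkb1XTR range, although the highest non-restored library of Capza1, at 104 CPM, came close to KT replicate 1. The log2 difference from KT was -1.45 (SE 0.25) and -1.76 (SE 0.27) for Capza1 and 4.54 (SE 0.34) and 4.28 (SE 0.35) for Gm3608, non-restored first.

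The sum over Capza1, Gm3608 and the further copy Gm5920 did not separate the lines. It was 118 to 169 CPM in KT and 113 to 350 CPM in Lkb1XTR libraries, and its mean log2 level differed by 0.0059. The share of the Capza1 and Gm3608 sum given to Gm3608 was 2.08 to 4.14% in KT and 57.2 to 77.4% in Lkb1XTR libraries. The posterior SDs that RSEM gave the counts of both genes were 2.66 to 19.3 counts and differed by at most 0.10 counts within a library. On the per-length TPM scale, Capza1 overlapped between KT and Lkb1XTR libraries and Gm3608 did not.

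**Figure D2:**
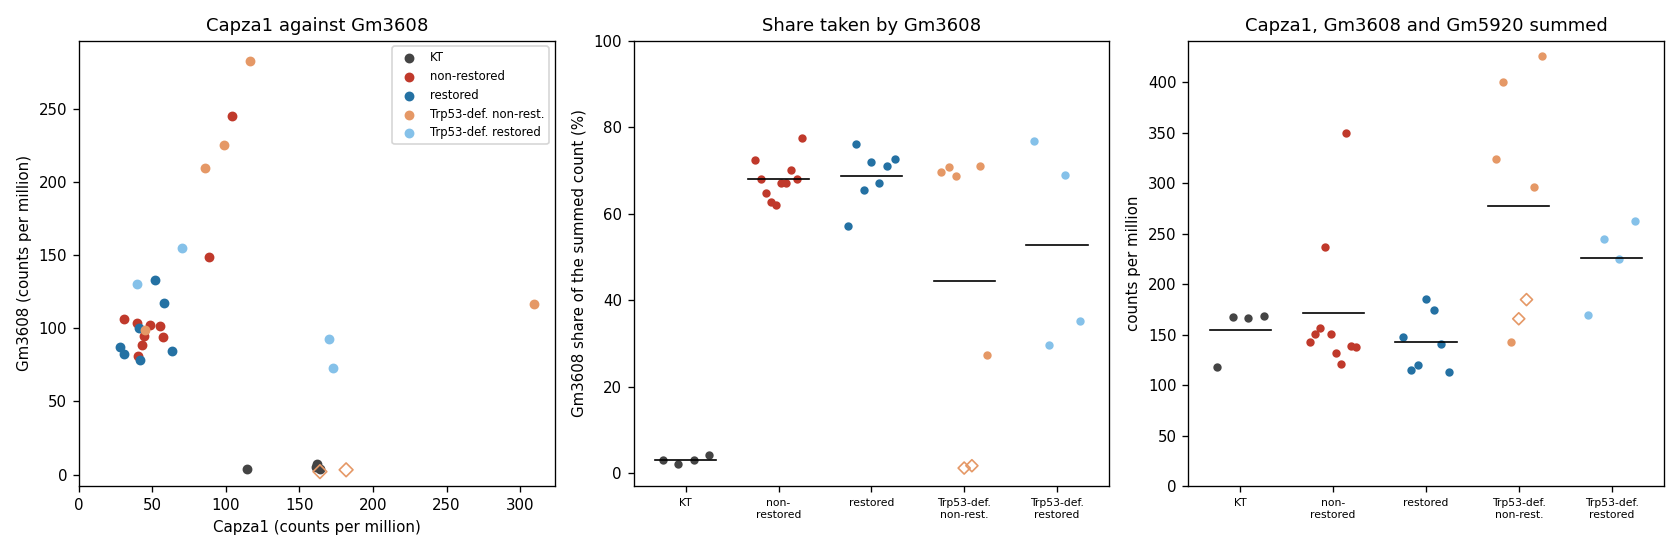
Left, Capza1 (horizontal axis) against Gm3608 (vertical axis), both in CPM, with a point for each of the 32 libraries colored by group; middle, the Gm3608 share of the summed count of both genes (%); right, the CPM summed over Capza1, Gm3608 and Gm5920, with bars at group means. KT libraries lie at 114 to 164 CPM of Capza1 and 3.49 to 7.00 CPM of Gm3608, and the Trp53-deficient animal of replicates 4 and 5 (open diamonds) lies beside them.

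Cttnbp2nl, whose gene lies beside Capza1 on chromosome 3 (chr3:105001915-105053146, minus strand), was also higher in KT tumors. KT libraries held 96.8, 136, 103 and 106 CPM, non-restored libraries 31.8, 52.0 and 81.7 CPM and restored libraries 36.3, 48.7 and 58.9 CPM. The groups did not overlap, and the log2 difference from KT was -1.03 (SE 0.19) and -1.21 (SE 0.21). No copy of 95% identity over 500 bases was found for Cttnbp2nl, so summing copies left it as it was.

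AI506816 (chr5:23698296-23712667, minus strand) held 31.2, 33.9, 26.1 and 24.8 CPM in KT libraries. In non-restored libraries it held 0.533, 2.80 and 4.10 CPM (lowest, median, highest) and in restored libraries 0.762, 2.63 and 5.31 CPM. The KT libraries stood clear of all others, with log2 differences from KT of -3.50 (SE 0.35) and -3.26 (SE 0.39). The transcripts that RSEM assigned also differed, with an isoform-weighted length of 1575 to 2680 bases in KT and 474 to 981 bases in Lkb1XTR libraries. On the TPM scale, which divides by that length, KT libraries held 15.4 to 23.1 and Lkb1XTR libraries 1.17 to 10.5, and the mean log2 difference shrank from 3.36 in CPM to 1.80 in TPM.

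Xylt1 (chr7:117380979-117673580, plus strand) was the only gene besides Gm3608 that was lower in KT libraries without overlap. It held 1.36, 0.826, 2.02 and 0.477 CPM in KT, 3.57, 10.4 and 13.3 CPM in non-restored and 3.67, 6.09 and 11.7 CPM in restored libraries (lowest, median, highest). The log2 difference from KT was 2.94 (SE 0.42) and 2.37 (SE 0.43). Of the 15 genes of the proteoglycan linker pathway that Xylt1 opens, 14 were tested and 0 passed the threshold against KT in either group.

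Compared per length, mean TPM in KT libraries ran from Capza1 (65.4) through Apobec3 (45.2), Cttnbp2nl (29.5), AI506816 (18.0) and Trim12a (11.7) to Xylt1 (0.163). In non-restored libraries Gm3608 headed the order (59.8 TPM), followed by Apobec3 (31.9) and Capza1 (26.2), with Trim12a last (0.023). Xylt1 thus ranked low in both, and its KT values rest on few reads.

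The genes around the 10 were examined next. Of 212 other genes tested within 2 Mb of any of the 10, 5 passed the threshold against KT in both Lkb1XTR groups (2.36%), beside 0.325% of all tested genes outside the 10. The Xylt1 region held 3 of its 25 tested neighbours (12.0%) and the Apobec3 region 2 of 62 (3.23%). The other regions held none, namely the Trim cluster (20 tested), Capza1 and Cttnbp2nl (61), Gm3608 (11) and AI506816 (33). The clustered Trim genes thus had no such neighbour, either in the cluster or around it.

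Rps13, a protein of the small ribosomal subunit, lies 1190 kb from Xylt1 and held 334 to 507 CPM in KT and 76.7 to 168 CPM in Lkb1XTR libraries. Arl6ip1, a membrane-shaping protein of the endoplasmic reticulum, lies 597 kb from Xylt1 and held 193 to 303 and 60.5 to 166 CPM. Rps15a, another small-subunit protein 583 kb from Xylt1, held 1028 to 1105 and 566 to 1033 CPM. These 3 genes were higher in KT tumors, opposite to Xylt1, and the Rps15a ranges overlapped narrowly. Near Apobec3, Micall1, a regulator of endosome recycling 781 kb away, held 35.3 to 55.9 CPM in KT and 16.0 to 34.2 CPM in Lkb1XTR libraries. Rpl3, a large-subunit ribosomal protein 181 kb away, held 553 to 910 and 371 to 643 CPM with overlap. Rps13 also has near-identical pseudogenes, and the sum over Rps13 and these was 499 to 597 CPM in KT and 455 to 875 CPM in Lkb1XTR libraries, with overlap. The 5 neighbours became 3 without KT replicate 4, and 10 of 265 tested with DESeq2, which also called 132 rather than 41 genes over all genes outside the 10.

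**Figure D3:**
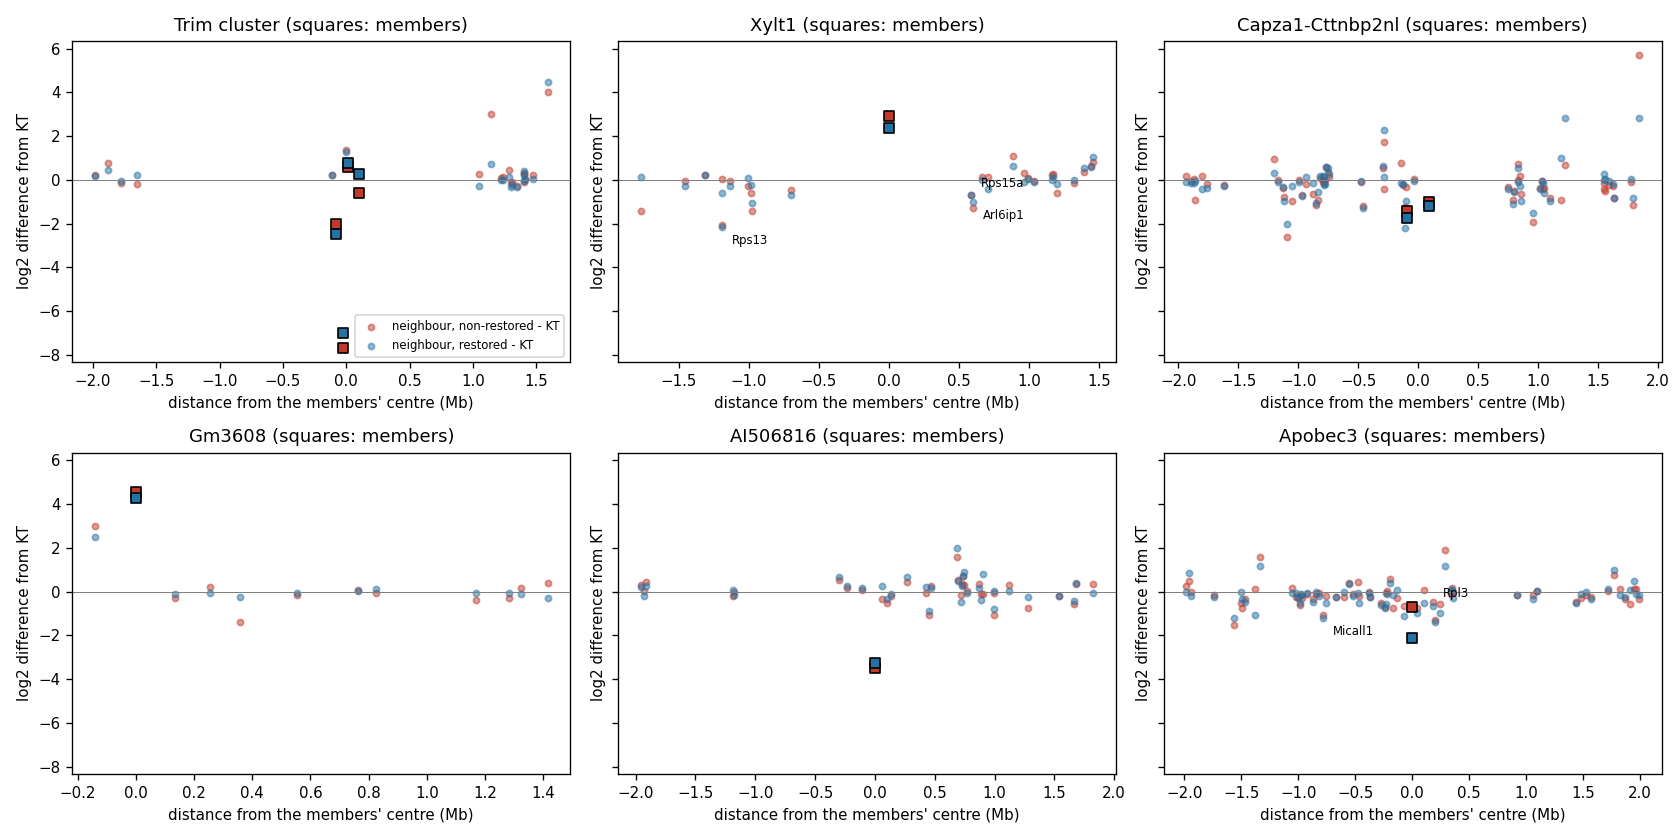
Log2 difference from KT tumors (vertical axis; red, non-restored; blue, restored) against distance from the centre of the genes named on each panel (horizontal axis, Mb), for all tested genes within 2 Mb. Squares are the 10 genes, circles their neighbours, and the 5 neighbours past the threshold in both Lkb1XTR groups are named, 3 near Xylt1 and 2 near Apobec3.

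The Trp53-deficient libraries all carry Lkb1XTR and were not used to choose the genes. In 9 of these 11 libraries Trim12a was at 0, as in most Trp53 wild-type Lkb1XTR libraries. Replicates 4 and 5 of the Trp53-deficient non-restored group, which come from 1 animal, held 5.73 and 3.75 CPM, between the Lkb1XTR and the KT ranges. The same 2 libraries held 2.01 and 3.24 CPM of Gm3608, where the other 9 held 72.5 to 283 CPM. Their Trim12c was 16.8 and 13.6 CPM, inside the KT range and below the other 9 libraries. Their Capza1 was 164 and 182 CPM, and their Trim30d was 6.52 and 6.63 CPM where the other 9 libraries were at 0.

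The animal of replicates 4 and 5 was not KT-like for every gene. On a scale where 0 is the mean log2 level of the Lkb1XTR libraries and 1 that of KT, its libraries stood at 0.73 and 0.61 for Trim12a, 1.24 and 1.11 for Gm3608, and 1.09 and 1.18 for Capza1. They stood at 0.68 and 1.03 for Cttnbp2nl and 0.51 and 0.80 for Xylt1. For AI506816 they stood at -0.07 and 0.24, with 1.93 and 4.44 CPM inside the Lkb1XTR range. By level its libraries split for Trim34a, at 0.77 and 0.02 (7.03 and 2.18 CPM, the second inside the Lkb1XTR range). By share of the Trim34a and Trim34b sum, Trim34a took 92.3 and 86.5%, the second of only 7.39 counts. Both shares lay inside the KT range (75.8 to 100%) and above the Trp53 wild-type Lkb1XTR range (15.9 to 63.6%). The libraries also split for Trim5, at 2.64 CPM inside the KT range and 0.348 CPM inside the Lkb1XTR range. The neighbour Rps13 was at 0.73 and 0.76. AI506816 and Trim12a were the 2 of the 10 genes whose KT libraries still cleared all 28 Lkb1XTR libraries (background 0.475%).

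Capza1 was high in further Trp53-deficient libraries without a low Gm3608. Non-restored replicate 7 held 309 CPM of Capza1 and 116 CPM of Gm3608, and restored replicates 2 and 4 held 172 and 170 CPM of Capza1 with 72.5 and 92.4 CPM of Gm3608. In all 3 libraries Capza1 was above the KT mean on the 0 to 1 scale (1.65, 1.13 and 1.12), and Gm3608 stayed near the Lkb1XTR mean (-0.04, 0.12 and 0.04). The Gm3608 share of the Capza1 and Gm3608 sum was 27.3, 29.6 and 35.2% in these libraries. That lies between the ranges of KT (2.08 to 4.14%) and Trp53 wild-type Lkb1XTR libraries (57.2 to 77.4%).

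**Figure D4:**
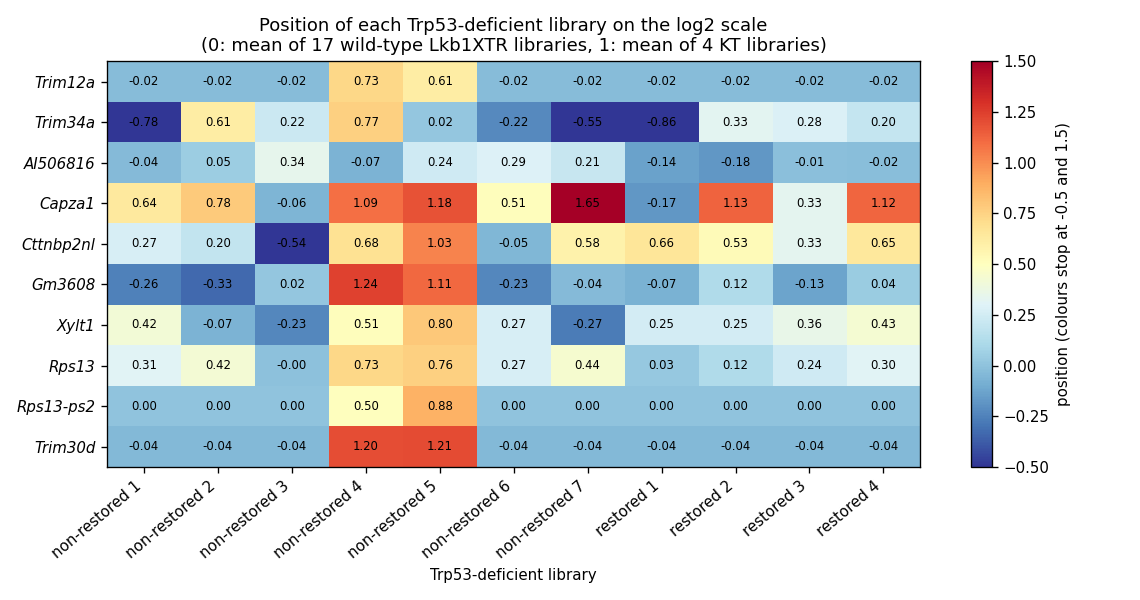
Position of each Trp53-deficient library (columns) for 7 of the genes described here and for Rps13, the pseudogene Rps13-ps2 and Trim30d (rows), written in each cell and colored, where 0 is the mean log2 level of the 17 Trp53 wild-type Lkb1XTR libraries and 1 that of the 4 KT libraries. Non-restored replicates 4 and 5, the columns of 1 animal, stand at 1.24 and 1.11 for Gm3608 and at -0.07 and 0.24 for AI506816.

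Restoration of Lkb1 within the Lkb1XTR line was tested for all 10 genes, and Apobec3 was the 1 gene that changed (lower, beside 1.87% of 12636 genes called and 0.894% called lower). Apobec3 held 13.8, 43.6 and 71.2 CPM in the 10 non-restored libraries (lowest, median, highest) and 10.9, 18.9 and 21.7 CPM in the 7 restored libraries. The groups overlapped through non-restored replicate 9 alone, at 13.8 CPM. Apobec3 fell by 1.39 on the log2 scale in restored tumors (SE 0.25, adjusted p = 0.0044, edgeR quasi-likelihood test with Benjamini-Hochberg adjustment over all genes tested), to 0.381 of the non-restored level. Against the 6 non-restored libraries of the vehicle arm the difference was -1.45 (adjusted p = 8.28e-04), and against the 4 of the tamoxifen arm it was -1.28 (adjusted p = 0.111). Among females alone it was -1.58 (adjusted p = 1.92e-04). The choice of the genes also used these libraries. Each library was counted as a sample although both groups held fewer mice than libraries, so these p-values overstate the replication.

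The genes that separated KT from Lkb1XTR libraries showed no call on restoration. The log2 difference, restored minus non-restored, was 0.66 (SE 0.71) for Trim12a, -0.45 (SE 0.39) for Trim34a and 0.17 (SE 0.15) for Trim12c. It was -0.26 (SE 0.20) for Gm3608, -0.31 (SE 0.22) for Capza1, -0.18 (SE 0.17) for Cttnbp2nl and 0.24 (SE 0.34) for AI506816. For Xylt1 it was -0.57 (SE 0.26, unadjusted p = 0.0369, adjusted p = 0.290) and for Trim30a 0.87 (SE 0.57, adjusted p = 0.511). A p that misses the threshold does not show equal levels. Between the tamoxifen and vehicle arms of the non-restored group 0 of the 7 genes with enough counts passed (0% of 11561 genes, with 3.27% under an unadjusted p of 0.05, and 11 genes by DESeq2), and the largest difference was that of Trim30a at -1.66 (SE 0.77, adjusted p = 1.00).

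Apobec3 also differed between the Trp53 groups. The KT libraries held 114, 52.9, 57.5 and 69.7 CPM. The Trp53-deficient non-restored libraries held 71.8, 69.3, 94.1, 94.7, 48.5, 102 and 119 CPM for replicates 1 to 7, and the Trp53-deficient restored libraries 85.3, 112, 90.9 and 83.9 CPM. Every Trp53-deficient restored library was thus above every Trp53 wild-type restored one (10.9 to 21.7 CPM). Apobec3 rose by 2.43 on the log2 scale between these restored groups (SE 0.27, adjusted p = 2.93e-06, edgeR), the 1 of 10 genes called (background 0.445%). Capza1 differed by 1.33 (SE 0.37, adjusted p = 0.102, edgeR), which passed with DESeq2 (adjusted p = 0.0387) and without Trp53-deficient restored replicate 1 (adjusted p = 0.0360), and Cttnbp2nl by 0.68 (SE 0.21, adjusted p = 0.141). Trp53 status, the weeks since tumor initiation and any difference in genetic background of the Trp53 flox/flox mice cannot be told apart in these comparisons.

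Between the non-restored groups, Capza1 and Apobec3 were higher in Trp53-deficient tumors, 2 of the 10 genes (background 0.753%, with 0.46% higher and 0.294% lower). Apobec3 differed by 1.05 (SE 0.25, adjusted p = 0.0388, edgeR), and the call was lost when any of 8 single animals or libraries was left out, with an adjusted p of up to 0.238. They were non-restored replicates 1, 2, 3, 7 and 10 and, of the Trp53-deficient group, the animal of replicates 1 to 3, replicate 6 and replicate 7. Capza1 differed by 1.55 (SE 0.34, adjusted p = 0.0242), but by 1.05 (adjusted p = 0.318) without Trp53-deficient replicate 7, and by 0.77 (adjusted p = 0.0843) when its copies were summed. Trim12a differed by 4.27 (SE 1.06, adjusted p = 0.0533), and without the animal of replicates 4 and 5 by -0.95 (adjusted p = 0.626). It passed when non-restored replicate 4 or 8, the Trp53-deficient animal of replicates 1 to 3 or Trp53-deficient replicate 6 was left out, with an adjusted p of 0.0207 to 0.0417.

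Within the Trp53-deficient line, Apobec3 differed by 0.03 between restored and non-restored tumors (SE 0.18, adjusted p = 0.979, edgeR). None of the 9 genes tested passed (0% of 12516 genes, with 5.98% under an unadjusted p of 0.05, and 26 genes by DESeq2). AI506816 had the lowest p of them, with a log2 difference of -1.07 (SE 0.41, unadjusted p = 0.0257, adjusted p = 0.804). The restoration effect on Apobec3 differed between Trp53 backgrounds by 1.38 (SE 0.37, unadjusted p = 0.00106), which did not pass across all genes (adjusted p = 1.00). The same test gave 0 calls among 13706 genes, with 3.08% under an unadjusted p of 0.05, and 0 by DESeq2. By median, Apobec3 was lowest in restored tumors, then non-restored, KT and the Trp53-deficient groups. Non-restored libraries overlapped the restored ones by a single library and overlapped KT and Trp53-deficient non-restored libraries, and the last 3 groups overlapped each other.

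Other genes of the same pathways were counted from lists. Of 18 genes of restriction factors outside the Trim cluster 15 were tested, and of 20 interferon-response genes 17 were tested. Neither list had a gene past the threshold in any of 6 comparisons, those with KT, the restored with the non-restored groups in both Trp53 backgrounds, and the Trp53 comparisons. The median log2 difference of non-restored from KT tumors was -0.08 over the restriction factors and 0.03 over the interferon-response genes, beside 0.03 over all tested genes. Over the interferon-response genes it was 0.24 for restored against KT (0.01 over all genes), 0.18 for restored against non-restored (-0.01) and 0.30 for restoration in the Trp53-deficient line (0.02). With Trp53 deletion it was -0.20 among non-restored (-0.02 over all genes) and 0.14 among restored tumors (-0.0037). Irf7, the interferon regulatory factor that amplifies the response, held 0.81 to 4.77 CPM in KT and 1.90 to 8.67 CPM in Lkb1XTR libraries, with overlap. Of 10 actin capping genes 8 were tested and 0 passed in the 6 comparisons. Of 17 striatin complex genes 16 were tested, and Ppp2cb, a catalytic subunit of protein phosphatase 2A, was higher in non-restored than in KT tumors and was the 1 call.

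Across all 32 libraries, the genes with the level pattern most like each of the 10 were named by Pearson r of log2 CPM, as a description without a test, since the libraries share lines and animals. Trim12a was most like Rps13-ps2, a ribosomal pseudogene 15.8 Mb away on the same chromosome (r = 0.973), and Rps13 itself, 12.0 Mb away (r = 0.884). Rps13-ps2 and Rps13 also headed the list for AI506816 on chromosome 5 (0.792 and 0.712), and Rps13 for Cttnbp2nl on chromosome 3 (0.809). Gm3608 and Trim12c were most like the pseudogene Rps15a-ps4 (0.839 and 0.787), and Capza1 most like Rps15a (0.854). Apobec3 was most like AC113595.1 (0.851) and its neighbour Rpl3 (0.815). Trim30a was most like the class I antigen-presentation genes H2-Q7 (0.697) and H2-Q6 (0.694), Trim34a most like Hsd11b2 (0.692), and Xylt1 most like Acot7 (0.747). Among the 10 themselves, Trim12a and Gm3608 had r = -0.93, Trim12a and Xylt1 -0.82, and Capza1 and Cttnbp2nl 0.70. These values in part restate the choice of the genes, since the 32 libraries include the KT libraries on which they were picked.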

How the data were processed

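Neoplastic cells were sorted without CD45, CD31, F4/80 and Ter119 cells, and libraries made with the Trio RNA-seq kit. The authors aligned reads with STAR 2.6.1d to mm10 and deposited RSEM 1.2.30 results per library, that is expected counts (estimated reads per gene, with posterior SDs) and TPM, which divides by transcript length. A matrix of counts normalized by the authors with DESeq2 1.26.0 (unit signal) served here only as an alternative. The authors' own tables of fold changes and p-values were not used. Expected counts were rounded and tested with edgeR 4.0.16 (TMM, low-count filter, quasi-likelihood, Benjamini-Hochberg over all genes tested, threshold 0.05). The 3 groups with KT shared a fit of 21 libraries, and the 7 Trp53-deficient non-restored libraries were summed to 4 animals. The script was tested on simulated data. Some items are not reported here. Ratios to a group at 0 use a floor of 3 counts. Copies were transcripts matching at 95% over 500 bases in GENCODE M21, searched with BLAST 2.17.0. Likeness used log2(CPM + 0.5).

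The 10 genes, the gene lists, the tests and the 2 Mb window were chosen with earlier results of these data known. Named genes were the 10, other Trim cluster genes with a mean of 10 counts in a group, near-identical copies, neighbours past the threshold, and the 2 genes most like each of the 10. The Rps13 and Rps15a copies, the copy thresholds and the Trp53 comparisons with summed copies were chosen after values were seen. Alternatives were DESeq2 1.42.0, other scaling, no filter, length offsets, single libraries left out, females only, single arms, a sex term and a replicate block.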

Additional observations from a re-analysis of the deposited data

Results flagged for a closer look

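Of 49 gene and group combinations tested with Dixon's ratio, 5 had a library or animal far from its group, and chance gives about 1 in 20. Trim12a in non-restored replicate 5 was 0.512 CPM, with the next at 0.00654 CPM. Trim12a in the Trp53-deficient non-restored animal of replicates 4 and 5 averaged 4.74 CPM, with the other 3 animals at 0. Gm3608 in non-restored replicate 8 was 245 CPM, with the next at 149 CPM. Xylt1 in restored replicate 2 was 11.7 CPM, with the next at 7.02 CPM. Capza1 in KT replicate 1 was 114 CPM, with the next at 161 CPM.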

How the results depend on the processing

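Of 187 alternatives of single-gene results, 156 kept direction and side of the threshold, 11 fell below it, 9 rose past it, 8 values without a test moved beyond the replicate spread and 3 reversed. Of 140 alternatives of counts, 126 stayed within 1.5 times and 14 did not, and the cause of each exception below was not tested unless given. The count of the 10 genes changed by restoration was 0 with the tamoxifen arm alone (4 non-restored libraries) and 1 in every fit that left out a library. The labels do not tie these libraries to mice, so leaving out all libraries of a mouse was not tested. For Trp53 deletion among non-restored tumors it was 2, 1 with copies summed, and 0 to 3 with a library or animal left out (0 without Trp53-deficient replicate 7). Among restored tumors it was 1, 2 with DESeq2, and 1 to 2 with a library left out (2 without Trp53-deficient restored replicate 1, Capza1 added). Trim12a between non-restored groups turned to -0.95 without the animal of replicates 4 and 5 and to -0.046 with copies summed. Genes whose KT libraries lay apart numbered 6, 3 with copies summed (Gm3608 then differed by 0.0059), 2 with Trp53-deficient libraries added and 6 to 7 without a KT library. Neighbours called numbered 5, 10 with DESeq2 and 3 to 6 without a KT library (3 without replicate 4). Over all genes outside the 10, calls against KT in both groups rose from 41 to 132 with DESeq2 and fell to 10 without KT replicate 1 and to 16 without replicate 4. With DESeq2, calls over all genes were 471 rather than 236 for restoration, 480 rather than 100 and 222 rather than 59 for Trp53 deletion (non-restored, restored). Counting the 7 libraries as samples gave 483 rather than 100.

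The replicate numbers were not taken as pairs, since no label ties them and not every pair passed 0.1: deviations of the 7 same-numbered pairs of non-restored and restored libraries correlated at 0.0323 to 0.475, with 5 over 0.1. With a replicate block, restoration still called 1 gene, Apobec3 (-1.44, adjusted p = 3.12e-04). Depth limits Trim12a, Trim34a, Trim30d and Xylt1, which had few reads per library. AI506816 also had few reads in the Lkb1XTR libraries.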

Other observations

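The ribosomal genes that track the 10 genes also have near-identical pseudogenes, and these were examined after their values were seen. Rps13-ps1 held 8.03 to 16.6 CPM in 3 KT libraries and 259 CPM in KT replicate 3, against 371 to 707 CPM in the 17 Trp53 wild-type Lkb1XTR libraries, the reverse of Rps13. The sum of Rps13 and its pseudogenes overlapped, at 499 to 597 CPM in KT and 455 to 875 CPM in Lkb1XTR libraries. In the Trp53-deficient animal of replicates 4 and 5, Rps13-ps1 was 287 and 325 CPM, below the 419 to 853 CPM of the other 9 Trp53-deficient libraries. Rps13-ps2 held 4.77 to 12.1 CPM in KT libraries and 0 in all 17 Lkb1XTR libraries, at least 145-fold higher in KT against 3 counts over the group. It held 1.56 and 5.39 CPM in that animal and 0 in the other 9 libraries. Rps15a pseudogenes summed to 12.9 to 126 CPM in KT, with replicate 3 the highest, and to 151 to 311 CPM in Lkb1XTR libraries.

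Among the neighbours, Rpl3 rose by 0.71 on the log2 scale in Trp53-deficient against Trp53 wild-type restored tumors (adjusted p = 0.00496, edgeR), in the direction of Apobec3. Rps13 rose by 0.91 (adjusted p = 0.00849, edgeR) and Rps15a by 0.58 (adjusted p = 0.0234, edgeR) between the non-restored groups. In the Trp53-deficient animal of replicates 4 and 5, Rps13 was 299 and 314 CPM, above the 102 to 196 CPM of the other Trp53-deficient non-restored libraries. Its rise without that animal was not tested.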
